A study of Homo sapiens with 12 samples.

Results

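Ferritin is the store in which cells keep iron, and this account covers the genes of its 2 chains, FTH1 and FTL, together with TFRC, SLC11A2, ACO1 and IREB2, which take up iron or sense it, and BEST1, whose exons overlap those of FTH1 on the opposite strand. These 7 genes, of 12584 genes in the count table, were found by their Ensembl identifiers. They were chosen by how BEST1 and FTH1 counts move together and with earlier results of these same libraries known, so their values are given as a description, no p-value is printed for any of them, and counts of members past a threshold support nothing. The libraries came from A549 and PC9, human lung adenocarcinoma cell lines, stably infected with a pCDH lentiviral vector and selected for neomycin resistance. By the study's methods A549 was kept in RPMI and PC9 in DMEM, so line and culture medium cannot be told apart. In A549-HOXC6 and PC9-HOXC6 the vector carried HOXC6, a homeobox transcription factor, and in A549-NEO and PC9-NEO it was empty. Each of the 4 groups had 3 libraries, 12 in all, and the study asked which genes HOXC6 modulates. The sources do not state whether a line was a single clone, and HOXC6 itself is not among the genes analysed here, so the labels could not be checked against it.

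In most cells iron enters bound to transferrin, through the transferrin receptor encoded by TFRC, and leaves the endosome through the divalent metal transporter encoded by SLC11A2. Iron that is not used is stored in ferritin, a shell built of heavy chains (FTH1), which oxidise the iron, and light chains (FTL), which help to form its core. The iron regulatory proteins encoded by ACO1 and IREB2 bind short hairpins, the iron-responsive elements, when iron is scarce: in the 5′ UTR of ferritin mRNA they block translation, and in the 3′ UTR of TFRC mRNA they protect the message from decay. Ferritin is therefore controlled in large part after transcription, which read counts do not measure. BEST1 encodes bestrophin-1, a chloride channel best known from the retinal pigment epithelium.

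The iron-responsive elements are shown because they are the sites through which the regulatory proteins encoded by ACO1 and IREB2 act on ferritin and TFRC mRNA. The motif searched, on the strand of each canonical transcript only, was CNNNNNCAGTGN followed by 5 bases that pair with the 5 bases before the loop. This motif was present in 186 of 12427 canonical transcripts (1.5%), and among the members in FTH1, FTL and TFRC. Capitals mark the loop, and sequences and positions are from GRCh37.
FTH1, 5′ UTR, chr11:61735046-61735074, minus strand: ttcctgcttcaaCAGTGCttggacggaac
FTL, 5′ UTR, chr19:49468592-49468620, plus strand: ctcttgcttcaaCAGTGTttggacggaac
TFRC, 3′ UTR, chr3:195777850-195777878, minus strand: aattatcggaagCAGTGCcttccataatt
TFRC, 3′ UTR, chr3:195777446-195777474, minus strand: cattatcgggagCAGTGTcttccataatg
TFRC, 3′ UTR, chr3:195777381-195777409, minus strand: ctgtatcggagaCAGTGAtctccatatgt
TFRC, 3′ UTR, chr3:195777334-195777362, minus strand: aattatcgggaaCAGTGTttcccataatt
The FTH1 and FTL sites were identical at 26 of 29 bases. TFRC held 4 sites, and the canonical transcripts of BEST1, IREB2, ACO1 and SLC11A2 held no match, which says only that these letters are not in them. Sites that depart from this motif or lie in other transcripts were not searched.

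FTH1 and BEST1 lie tail to tail on chromosome 11. In the GENCODE annotation of GRCh37, BEST1 (ENSG00000167995) runs from 61717535 to 61732987 on the plus strand and FTH1 (ENSG00000167996) from 61727190 to 61735106 on the minus strand. The canonical FTH1 transcript has 1203 bases in 4 exons, and 3 of these exons, with 880 bases (73.2%), lie inside annotated BEST1 exons. The canonical BEST1 transcript covers 177 of those bases. The rest is covered by a BEST1 transcript with a long last exon, from 61729727 to 61732987. The shared part includes 435 coding bases of FTH1. The first FTH1 exon, which holds the iron-responsive element printed above, accounts for the 323 bases outside. In all, 4 of 8 annotated BEST1 transcripts reach canonical FTH1 exons, and 7421 of 8688 BEST1 exon bases lie outside FTH1. FTL, IREB2, ACO1 and SLC11A2 have no exon on the opposite strand in this annotation, and TFRC shares 191 bases with an unnamed gene that is not in the table.

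**Figure D1:**
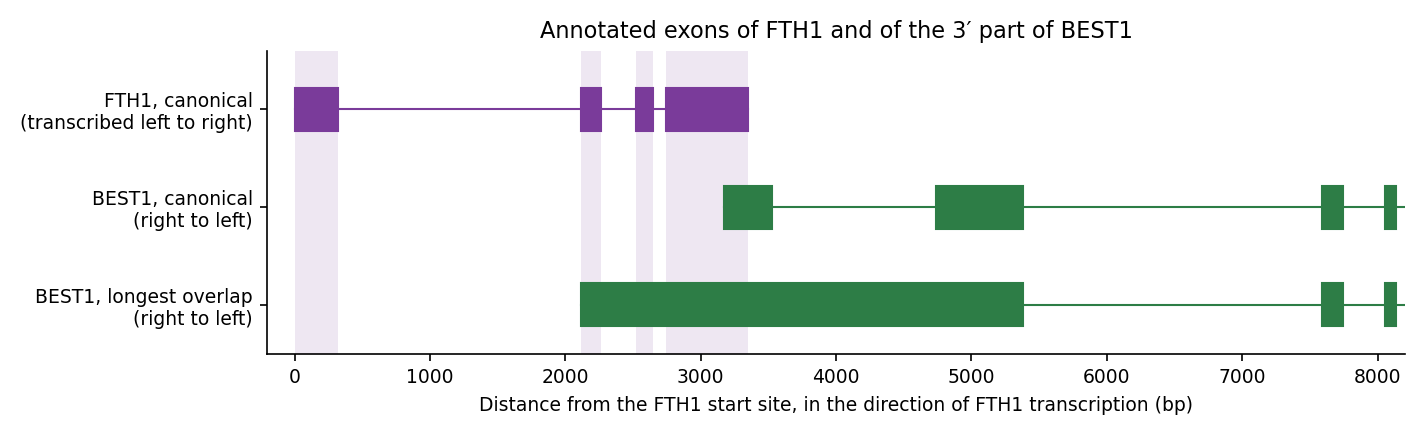
Exons (boxes) of canonical FTH1, canonical BEST1 and the BEST1 transcript with the longest overlap, plotted by distance in bp from the FTH1 start site in the direction of FTH1 transcription; pale bands mark the FTH1 exons. The first FTH1 exon lies clear of BEST1, and the last exon of the longer BEST1 transcript spans the other 3 FTH1 exons.

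The totals of the table ran from 1212053 to 3286577 counts per library, so that 3 counts, the floor used here, equal 0.913 to 2.48 CPM, the unit that expresses a count per 1000000 counts of the library. Levels are CPM normalized by the TMM method over 12 libraries. In these lines EPCAM, an epithelial marker, averaged 5.53 CPM in A549 and 176.6 CPM in PC9. CDH1 (161.2 and 427.4 CPM) and KRT18 (1490 and 5754 CPM) were also lower in A549, while KRT7 was higher there (7368 and 4746 CPM). These 4 epithelial markers summed to 7802 to 11680 CPM across the libraries, most of it from KRT7 and KRT18. Of the fibroblast and endothelial markers in the table, COL1A1 averaged 66.1 CPM in A549 and 29.0 CPM in PC9. COL3A1, PDGFRB and KDR had at most 6 counts. The leukocyte marker PTPRC had 0 to 4 counts. All 7 markers of the retinal pigment epithelium were in the table and TYR was at 0 throughout; RPE65 had 0 to 19 counts and the other 5 had at most 2, so the marker sum lay between 0 and 11.4 CPM. The libraries with the fewest counts were replicate 2 of A549-HOXC6 and replicate 2 of PC9-HOXC6.

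BEST1 had the largest count of any gene in the table. Averaged over 12 libraries it stood at 31760 CPM, rank 1 of 12584, while FTH1 was at 6463 CPM (rank 6) and FTL at 5889 CPM (rank 8), and the median gene was at 22.2 CPM. BEST1 alone took 2.49% to 4.19% of a library's counts. Per kilobase of canonical transcript, the level in A549-NEO was 12560 ± 1073 CPM for BEST1 (SD, n = 3), 9046 ± 163 CPM for FTL and 5385 ± 120 CPM for FTH1. In PC9-NEO these levels per kilobase were 12710 ± 2352, 5180 ± 182 and 4930 ± 104 CPM, in the same order of genes. The other 4 members lay far lower, from 3.84 CPM per kilobase for TFRC in A549-NEO to 45.3 for TFRC in PC9-NEO. The related bestrophin genes BEST2, BEST3 and BEST4 had group means of at most 0.888 CPM, under the floor. The transcript from which a count came is not recorded in the table, so the length used for BEST1 is that of its canonical transcript only.

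FTH1, the heavy chain, was lower with HOXC6 in A549 and higher with HOXC6 in PC9. Replicates 1, 2 and 3 of A549-NEO had 6638, 6437 and 6359 CPM, against 5211, 5500 and 6112 CPM in A549-HOXC6. Each HOXC6 library lay below each NEO library, and replicate 3 of A549-HOXC6 was the nearest to them. The log2 fold change was -0.25 (SE 0.059), a difference of -16.1%. In PC9-NEO, FTH1 had 5804, 5932 and 6055 CPM, and in PC9-HOXC6 it had 7494, 7556 and 8461 CPM. Here all HOXC6 libraries lay above all NEO libraries, with a log2 fold change of 0.40 (SE 0.049), or 32.4%. FTH1 pseudogenes are many (25 named FTH1P in the gene table used), and how the counting treated reads that match both is not stated.

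FTL, the light chain, was lower in PC9-HOXC6 than in PC9-NEO and overlapped between the vectors in A549. Its levels were 8021, 7878 and 7737 CPM in A549-NEO, against 7185, 7251 and 8774 CPM in A549-HOXC6. Replicate 3 of A549-HOXC6 was the highest of these 6 libraries and replicates 1 and 2 of A549-HOXC6 were the lowest. Replicate 3 also had the smallest TMM factor of the 12 libraries (0.90), which raises its CPM. As a share of library counts its FTL (0.788%) lay below replicates 1 and 2 of A549-NEO (0.802% and 0.795%) and above replicate 3 (0.773%). The log2 fold change was -0.072 (SE 0.062). That value was -0.15 without replicate 3 of A549-HOXC6, -0.024 without replicate 1 of A549-HOXC6, and -0.41 (SE 0.034) with the GC and length correction, in which smooth trends of the counts with these properties of the annotated transcripts were removed from every library. In PC9-NEO, FTL had 4476, 4375 and 4685 CPM, and in PC9-HOXC6 3350, 3455 and 3484 CPM. All 3 PC9-HOXC6 libraries lay below all PC9-NEO libraries, with a log2 fold change of -0.39 (SE 0.048), or -23.9%, and of -0.60 (SE 0.040) with the same correction. FTL also has pseudogenes (16 named FTLP).

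The 2 chains differed in opposite directions between the vectors in PC9, which shows in the ratio of FTH1 to FTL counts. This ratio was 0.822 ± 0.00522 in A549-NEO (SD, n = 3) and 0.727 ± 0.0310 in A549-HOXC6. It was 1.32 ± 0.0356 in PC9-NEO and 2.28 ± 0.128 in PC9-HOXC6. The 4 groups did not overlap in it: libraries ran from 0.697 to 0.759 in A549-HOXC6, from 0.817 to 0.828 in A549-NEO, from 1.29 to 1.36 in PC9-NEO and from 2.19 to 2.43 in PC9-HOXC6. FTL had the larger count in A549 and FTH1 in PC9.

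**Figure D2:**
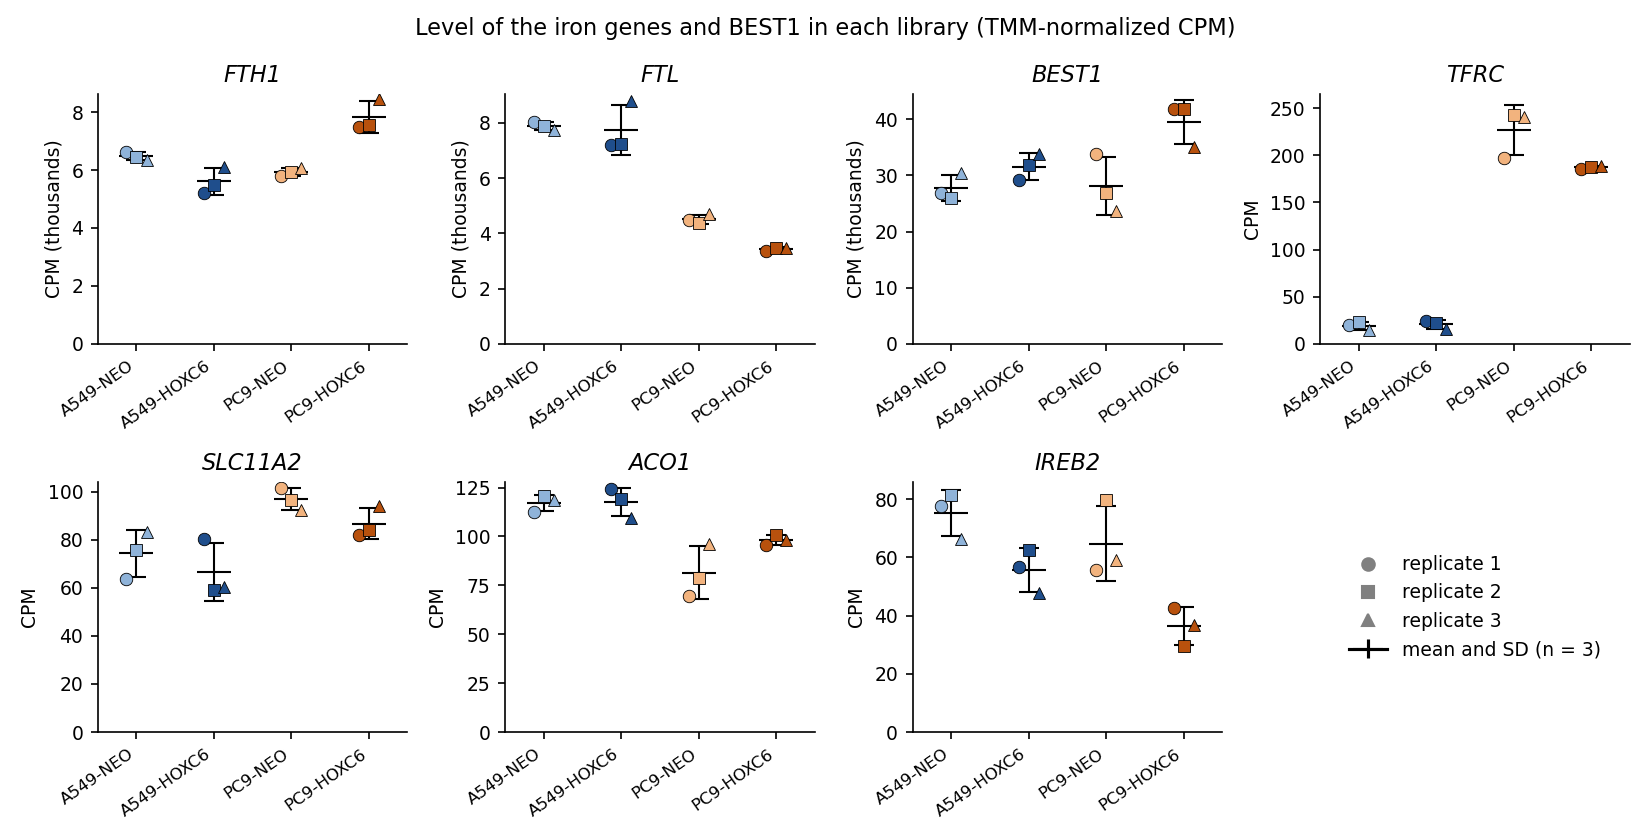
TMM-normalized CPM (vertical axes, from 0, in units of 1000 CPM for FTH1, FTL and BEST1) of the 7 genes in the 12 libraries by group; symbols are replicates and bars the mean and SD of 3 libraries. FTH1 lies lower in A549-HOXC6 and higher in PC9-HOXC6 than in its control, FTL and IREB2 are lowest in PC9-HOXC6, and TFRC separates the lines.

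BEST1 was higher in PC9-HOXC6 than in PC9-NEO. Its levels were 33780, 26910 and 23590 CPM in PC9-NEO, with a wide spread, and 41910, 41790 and 35100 CPM in PC9-HOXC6. The groups did not overlap, although replicate 1 of PC9-NEO came close to the lowest HOXC6 library, and the log2 fold change was 0.50 (SE 0.074), or 41.1%. Fitted with DESeq2, the log2 fold change was also 0.50 but its SE was 0.18, so this error depends on the method. A549-NEO libraries had 26930, 25900 and 30420 CPM of BEST1, against 29140, 31810 and 33800 CPM in A549-HOXC6. These groups overlapped, and the log2 fold change of 0.14 (SE 0.057) turned to -0.17 (SE 0.034) with the GC and length correction. It was 0.094 without replicate 2 and 0.21 without replicate 3 of A549-NEO. In PC9 the corrected value of BEST1 was 0.31. In FTH1 the same correction kept the directions, with -0.53 (SE 0.036) in A549 and 0.27 (SE 0.041) in PC9.

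Relative to each other, BEST1 counts were higher per FTH1 count with HOXC6 in A549, while in PC9 both genes were higher with HOXC6. The number of BEST1 counts per FTH1 count was 4.06, 4.02 and 4.79 in A549-NEO, against 5.59, 5.79 and 5.53 in A549-HOXC6. All A549-HOXC6 libraries lay above all A549-NEO libraries, at 5.64 ± 0.13 against 4.29 ± 0.43 (SD, n = 3). In PC9-NEO the ratio was 5.82, 4.54 and 3.90, and in PC9-HOXC6 5.59, 5.53 and 4.15. Here the groups overlapped and their means, 4.75 ± 0.98 and 5.09 ± 0.82, were closer than the spread within each. With the counts of both genes summed before the fit, the log2 fold change was 0.075 (SE 0.053) in A549, opposite in sign to that of FTH1 alone, and 0.49 (SE 0.063) in PC9.

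The library kit keeps the strand of the RNA, but the strand setting of the counting is not given in the sources used here. This setting applies to every gene, so the strand that was counted is not known for FTL and the other rows either. Reads of FTH1 and of BEST1 in the shared exons therefore cannot be told apart in these counts. For this reason the same layout was looked up elsewhere. Of the genes in the table, 10 share at least 100 bp of exon with FTH1, FTL or a cytosolic ribosomal protein gene on the opposite strand, BEST1 among them. Ribosomal protein genes are among the most abundant messages of a cell. ATG10, an autophagy gene opposite RPS23 (374 bp shared), was at rank 11 of the table with a mean of 12110 counts per library. SH3D19, an adaptor protein gene opposite RPS3A (262 bp shared), was at rank 13 with a mean of 10170 counts, 7.63 times the 1333 counts of RPS3A itself. RPS23 was not analysed here. The other 7, DNASE1L1, GLA, RNF207, DIPK1A, CLHC1, LRR1 and CAND2, had means of 13.4 to 330.4 counts, and in the 5 whose abundant partner is in the table the ratio to that partner lay between 0.00596 and 0.11.

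Within the PC9 groups, BEST1 followed ATG10 and SH3D19 from library to library, and FTH1 did not. In PC9-NEO, replicate 1 stood at 120% of the group mean for BEST1, 112% for ATG10 and 113% for SH3D19, and replicate 3 at 84.0%, 91.8% and 86.7%, while FTH1 was at 97.9% and 102% in the same libraries. In replicate 3 of PC9-HOXC6, BEST1, ATG10 and SH3D19 were at 88.6%, 93.8% and 90.8% and FTH1 was at 108%. A549-HOXC6 differed, since FTH1 rose with BEST1 there. Replicates 1, 2 and 3 stood at 92.3%, 101% and 107% for BEST1 and at 92.9%, 98.1% and 109% for FTH1. ATG10 was at 91.2%, 102% and 107% and SH3D19 at 96.5%, 103% and 101% in these libraries. As shares of library counts, without TMM scaling, they had 2.81%, 3.066% and 3.035% for BEST1 and 0.503%, 0.530% and 0.549% for FTH1. Over 12 libraries, after subtraction of each group's mean log2 CPM, Pearson's r with BEST1 was 0.951 for ATG10, 0.949 for SH3D19 and -0.226 for FTH1. For the other 7 neighbours it ran from -0.245 (GLA) to 0.796 (LRR1). Genes outside this list had high values too, such as 0.92 for UQCC2 and 0.87 for YPEL1, so a high value is not particular to these neighbours. These correlations are descriptions, since the genes share the same libraries and their depth. Between the vectors the log2 fold change in PC9 was 0.15 (SE 0.057) for ATG10 and 0.25 (SE 0.067) for SH3D19, beside 0.50 for BEST1. In A549 it was -0.0056 (SE 0.064) for ATG10 and 0.23 (SE 0.062) for SH3D19, beside 0.14 for BEST1. MRNIP, which lies opposite SQSTM1 and outside this list, stood at 116%, 94.7% and 89.8% of its group mean in PC9-NEO. Its log2 fold change was -0.32 (SE 0.069) in PC9 and 0.12 (SE 0.069) in A549. How many of the BEST1 counts came from FTH1 transcripts was not tested.

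**Figure D3:**
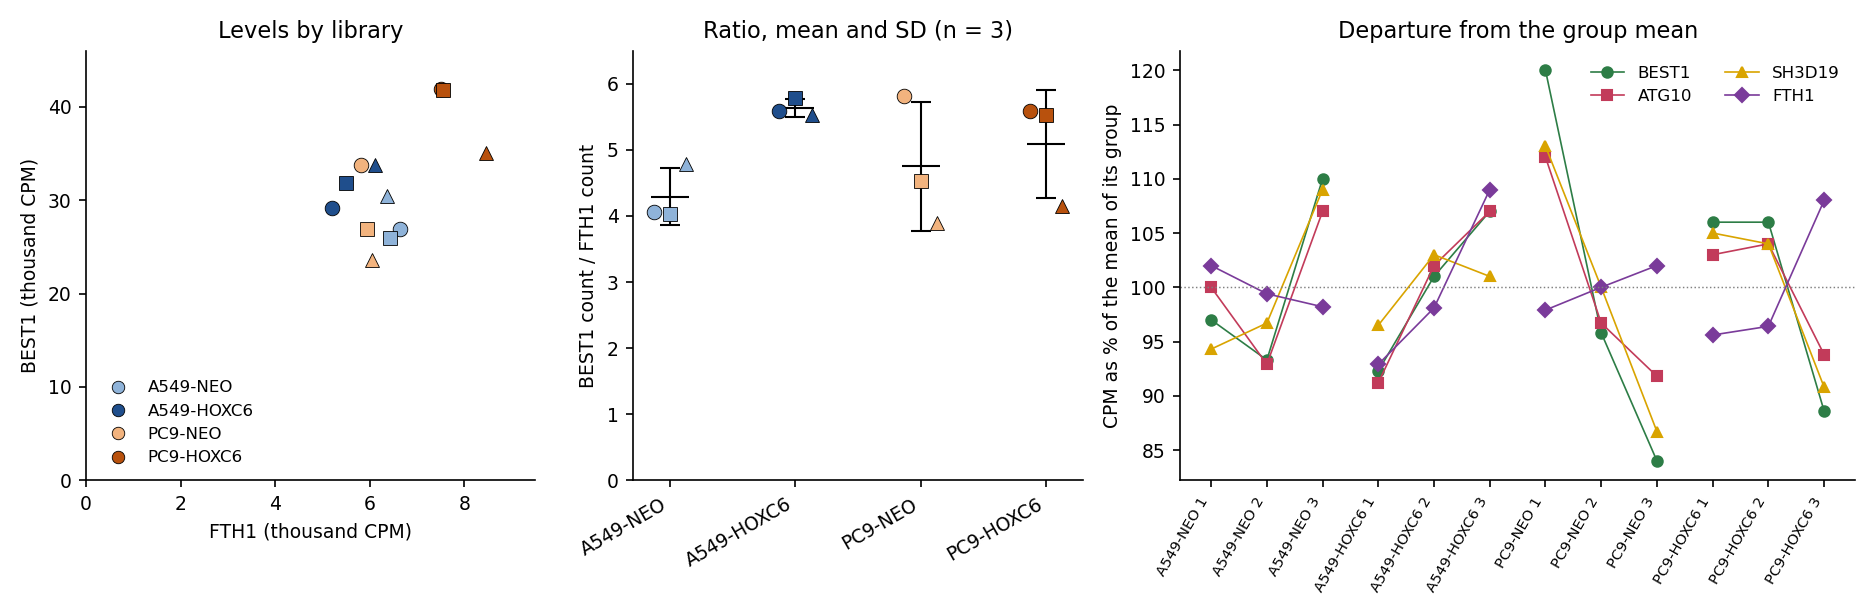
Left, BEST1 against FTH1 in units of 1000 CPM, 1 point per library (colour, group; symbol, replicate as in the plot of levels). Middle, BEST1 counts per FTH1 count by group with the mean and SD of 3 libraries. The groups are separate in A549 (4.02 to 4.79 and 5.53 to 5.79) and overlap in PC9. Right, CPM of 4 genes as a percentage of their group mean (axis not from 0). In PC9, BEST1, ATG10 and SH3D19 rise and fall together and FTH1 does not follow them. In A549-HOXC6, FTH1 rises with BEST1.

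TFRC, the transferrin receptor, separated the cell lines, which were also kept in different media. It had 19.4, 23.3 and 14.9 CPM in A549-NEO and 196.7, 243.1 and 240.9 CPM in PC9-NEO, 11.5-fold more in PC9 by the fit (log2 fold change of A549 against PC9 -3.52, SE 0.13). With HOXC6 it had 23.7, 22.3 and 15.5 CPM in A549, overlapping the controls, with a log2 fold change of 0.056 (SE 0.24) whose sign turned without replicate 3 of A549-NEO (-0.093) or replicate 1 of A549-HOXC6 (-0.12). In PC9-HOXC6 it had 185.2, 187.3 and 188.8 CPM, all below the PC9-NEO libraries, with a log2 fold change of -0.28 (SE 0.086). With the GC and length correction that value was -0.037 (SE 0.083).

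SLC11A2, the metal transporter of the endosome and of the gut surface, differed little between the vectors. Its levels were 63.8, 75.9 and 83.3 CPM in A549-NEO, against 80.4, 59.1 and 60.5 CPM in A549-HOXC6 (log2 fold change -0.17, SE 0.14), and this value was 0.0018 (SE 0.13) with the GC and length correction. In PC9-NEO they were 101.6, 96.7 and 92.5 CPM, and in PC9-HOXC6 82.0, 84.1 and 94.2 CPM (log2 fold change -0.14, SE 0.11). The vectors overlapped in both lines, while each PC9-NEO library lay above each A549-NEO library.

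IREB2, which encodes iron regulatory protein 2, had the largest difference of the members between the vectors in the TMM fit in both lines. It had 77.7, 81.6 and 66.4 CPM in A549-NEO, against 56.8, 62.5 and 47.6 CPM in A549-HOXC6, all lower, with a log2 fold change of -0.49 (SE 0.14). In PC9 it had 55.7, 79.5 and 59.0 CPM with the empty vector and 42.5, 29.5 and 36.9 CPM with HOXC6, again all lower, with a log2 fold change of -0.81 (SE 0.16), or -42.8%. IREB2 has the lowest GC content of the members, 38.2%, against a median of 48.8% over the genes tested. With the GC and length correction the value in A549 was 0.044 (SE 0.13), with the sign turned, and that in PC9 was -0.39 (SE 0.15).

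ACO1, which encodes iron regulatory protein 1, an aconitase when it holds its iron-sulphur cluster, had 112.4, 120.5 and 118.7 CPM in A549-NEO, against 124.1, 119.0 and 109.7 CPM in A549-HOXC6. The groups overlapped, and the log2 fold change of -0.035 (SE 0.11) changed sign without replicate 3 of A549-HOXC6 (0.033), in a model of all 12 libraries (0.0093) and with the GC and length correction (0.065). In PC9-NEO its levels were 69.7, 78.5 and 96.3 CPM and in PC9-HOXC6 95.5, 101.0 and 98.2 CPM, with a log2 fold change of 0.26 (SE 0.12), which was 0.16 without replicate 1 and 0.40 without replicate 3 of PC9-NEO. There the lowest HOXC6 library lay just under the highest control library.

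**Figure D4:**
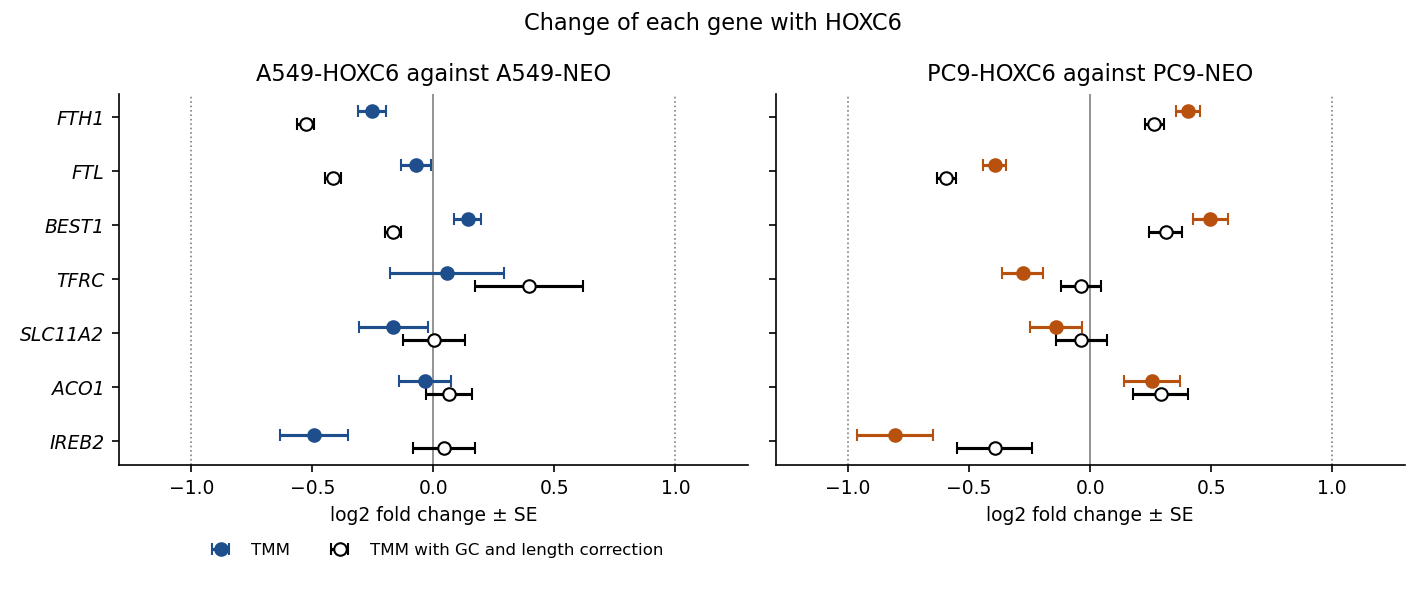
Log2 fold change with its SE of the 7 genes for HOXC6 against NEO in A549 (left) and PC9 (right), from the TMM fit (filled) and with the GC and length correction (open); dotted lines mark 1 and -1. All points lie inside the dotted lines, and the correction takes IREB2 in A549 from -0.49 to 0.044 and BEST1 in A549 from 0.14 to -0.17.

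No member met the study's criterion for a changed gene, an adjusted p under 0.05 (edgeR quasi-likelihood, Benjamini-Hochberg) with a log2 fold change over 1 or under -1, in either HOXC6 comparison. The criterion was met by 7.21% of the 8771 genes tested in A549 and by 4.53% of the 8419 tested in PC9. DESeq2 also called 0 members in each. All 7 members passed the filter on low counts in both, and at an unadjusted p under 0.05 there were 1 higher and 2 lower in A549 and 3 higher and 3 lower in PC9. Without the fold criterion, 3 of 7 members in A549 and 5 of 7 in PC9 were past the threshold, beside 39.6% and 27.5% of all genes tested. By DESeq2 these were 2, without BEST1, and 4, without TFRC, BEST1 in A549 was also lost with library totals, with at least 10 counts and in the model of all 12 libraries, and with the GC and length correction there were 3 in PC9. The libraries of the vectors did not overlap in 2 of 7 members in A549 and 5 of 7 in PC9, beside 50.4% and 39.9% of all genes. Nothing is read from these counts, since the members were chosen with these comparisons known. The median log2 fold change of the members was -0.072 in A549 and -0.14 in PC9, against -0.00047 and -0.0046 over all genes tested.

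Between the lines with the empty vector, 1 of 7 members met the criterion, TFRC, beside 36% of 9076 genes tested. FTL was 1.79-fold higher in A549-NEO than in PC9-NEO (log2 fold change 0.84, SE 0.041), and this value was 1.05 with the GC and length correction. ACO1 (0.55, SE 0.11) and FTH1 (0.17, SE 0.039) were also higher in A549-NEO, although FTH1 was at 0.054 with library totals, 0.048 with its counts summed with those of BEST1 and 0.30 with the correction, SLC11A2 (-0.34, SE 0.11) was higher in PC9-NEO, and IREB2 (0.26, SE 0.13) and BEST1 (0.022, SE 0.064) overlapped. At an adjusted p under 0.05 there were 5 of 7 members, beside 72.7% of all genes, and 5 of 7 had libraries that did not overlap, beside 74.4% of all genes. Ordered by mean level, FTH1 read PC9-HOXC6, A549-NEO, PC9-NEO, A549-HOXC6, and of these neighbours only PC9-NEO and A549-HOXC6 had overlapping libraries. FTL read A549-NEO, A549-HOXC6, PC9-NEO, PC9-HOXC6, with an overlap in the A549 pair.

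The difference in HOXC6 response between the lines, A549 minus PC9, was fitted as an interaction over 12 libraries. It was -0.61 (SE 0.086) for FTH1, 0.37 (SE 0.089) for FTL and -0.31 (SE 0.11) for BEST1 on the log2 scale. For TFRC it was 0.39 (SE 0.22), for IREB2 0.36 (SE 0.22), for ACO1 -0.25 (SE 0.16) and for SLC11A2 0.027 (SE 0.18). The criterion was met by 0 of 7 members, also with DESeq2, and by 5.15% of 9229 genes tested, and 3 of 7 were past an adjusted p of 0.05 (2 by DESeq2), beside 19.4% of all genes. The value of BEST1 was -0.20 without replicate 3 of PC9-NEO.

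The rest of the iron pathway was taken from a list of 76 genes, of which 59 are in the table. In A549, 47 of them were tested. Upregulation at an adjusted p under 0.05 was found for 13 and downregulation for 6, and 28 did not pass, beside 39.6% of all genes past that threshold, with a median log2 fold change of 0.11. In PC9, 8 of 46 were upregulated and 0 downregulated at that threshold, beside 27.5% of all genes, with a median of -0.0091 (11 and 3 at an unadjusted p under 0.05). With the fold criterion, 1 gene was called in A549 and 0 in PC9, also by DESeq2, beside 7.21% and 4.53% of all genes. In A549 the count was 2 to 4 in 10 of 15 alternative settings. The gene called in A549 was STEAP2, a metalloreductase, at 38.6 ± 1.46 CPM in A549-NEO and 18.3 ± 4.38 CPM in A549-HOXC6 (SD, n = 3). Its log2 fold change was -1.06 (SE 0.20, adjusted p = 0.000101, edgeR). The call was lost without replicate 2 (-0.99) or replicate 3 (-0.93) of A549-HOXC6, and with the GC and length correction the value was -0.43 (adjusted p = 0.0794). The difference between the lines for STEAP2 was -0.69 (SE 0.35, adjusted p = 0.171, edgeR).

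By group of the list, haem synthesis had 3 of 6 genes upregulated at an adjusted p under 0.05 in A549 and haem breakdown and transport had 3 of 8. In PC9 the numbers were 2 of 6 and 1 of 8. These counts are small. Beside them, 1657 of all 8771 genes tested in A549 were upregulated at that threshold and 1812 downregulated. In PC9 these were 1123 and 1193 of 8419. In either direction the shares are those given above, 39.6% in A549 and 27.5% in PC9. Mitochondrial import and iron-sulphur clusters had 0 of 12 upregulated and 3 downregulated in A549, and 1 of 11 upregulated in PC9. Cytosolic iron-sulphur cluster assembly had 2 of 6 upregulated in A549 and 1 of 6 in PC9. Uptake genes were upregulated in 1 of 9 and downregulated in 1 of 9 in A549, and upregulated in 2 of 9 in PC9. Of 3 regulators tested, 2 were upregulated and 1 was downregulated in A549. The difference between the lines was tested in 49 of the listed genes. A gene past the threshold in 1 line only is not thereby shown to differ.

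In each group of the list the member with the highest level was followed. LCN2, the siderophore-binding lipocalin, rose with HOXC6 in both lines, from 13.9 ± 3.99 to 24.0 ± 3.73 CPM in A549 (log2 fold change 0.72, SE 0.25, adjusted p = 0.0212, edgeR) and from 748.2 ± 29.1 to 1044 ± 24.9 CPM in PC9 (0.48, SE 0.058, adjusted p = 2.01e-07). PCBP4, the only storage-group gene in the table and a relative of the iron chaperones PCBP1 and PCBP2, rose by 0.64 (SE 0.21, adjusted p = 0.0178, edgeR) in A549 and by 0.73 (SE 0.24, adjusted p = 0.022) in PC9 on the log2 scale. CP, the ferroxidase ceruloplasmin, fell from 218.2 ± 33.0 to 133.5 ± 21.2 CPM in A549 (-0.77, SE 0.12, adjusted p = 1.07e-05, edgeR), and in PC9 its log2 fold change was -0.21 (SE 0.10, adjusted p = 0.137). FBXL5, the iron-sensing ubiquitin ligase subunit that marks IREB2 protein for breakdown, fell in A549 (-0.36, SE 0.14, adjusted p = 0.0376, edgeR) and had -0.27 (SE 0.20, adjusted p = 0.342) in PC9. The difference between the lines for FBXL5 was -0.049 (SE 0.23, adjusted p = 0.929).

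ALAS1, the first enzyme of haem synthesis, rose in PC9 from 90.3 ± 9.25 to 128.8 ± 2.50 CPM (log2 fold change 0.50, SE 0.10, adjusted p = 0.000365, edgeR) and had 0.08 (SE 0.13, adjusted p = 0.663) in A549. MMS19, which delivers iron-sulphur clusters to cytosolic and nuclear enzymes, rose in PC9 (0.38, SE 0.11, adjusted p = 0.00718, edgeR) and had 0.08 (adjusted p = 0.519) in A549. BLVRB, a biliverdin reductase, rose in PC9 (0.33, SE 0.089, adjusted p = 0.00504, edgeR) and had -0.11 (adjusted p = 0.376) in A549. SLC40A1, the iron exporter ferroportin, and HMOX1, which frees iron from haem, were added after their values were seen, as the genes most often read beside ferritin. SLC40A1 had 5.68 ± 0.936 CPM in A549-NEO and 11.2 ± 3.87 CPM in A549-HOXC6 (log2 fold change 0.89, SE 0.35, adjusted p = 0.0447, edgeR), and -0.30 (SE 0.28, adjusted p = 0.456) in PC9. HMOX1 had -0.13 (SE 0.10, adjusted p = 0.325, edgeR) in A549 and 0.36 (SE 0.27, adjusted p = 0.346) in PC9. The difference between the lines, A549 minus PC9, was -0.38 for ALAS1 (adjusted p = 0.0981, edgeR) and -0.25 for MMS19 (adjusted p = 0.236). It was -0.44 for HMOX1 (adjusted p = 0.252) and 1.235 for SLC40A1 (adjusted p = 0.05, not under the threshold). None of these passed, while BLVRB did (-0.39, adjusted p = 0.0399).

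The response to HOXC6 differed between the lines, at the same criterion, in 4 of 49 other iron genes tested, 2 in each direction, beside 5.15% of all genes. SLC25A37, mitoferrin-1, which carries iron into mitochondria, fell from 360.4 ± 16.8 to 187.0 ± 9.63 CPM in A549 (log2 fold change -0.99, SE 0.091, adjusted p = 2.01e-09, edgeR) and rose from 84.3 ± 10.8 to 114.2 ± 2.79 CPM in PC9 (0.44, SE 0.11, adjusted p = 0.0026). FDXR, which passes electrons for iron-sulphur cluster assembly, fell from 327.1 ± 14.3 to 203.2 ± 34.2 CPM in A549 (-0.72, SE 0.098, adjusted p = 1.67e-06, edgeR) and had 0.38 (SE 0.21, adjusted p = 0.19) in PC9. HFE, which acts with transferrin receptors in iron sensing, rose from 17.3 ± 2.08 to 35.3 ± 4.95 CPM in A549 (0.99, SE 0.20, adjusted p = 0.000283, edgeR) and had -0.33 (SE 0.15, adjusted p = 0.112) in PC9. FECH, which inserts iron into haem, rose from 35.7 ± 5.38 to 60.9 ± 7.58 CPM in A549 (0.73, SE 0.16, adjusted p = 0.000564, edgeR) and had -0.31 (SE 0.14, adjusted p = 0.0985) in PC9. As differences, A549 minus PC9, the log2 values were -1.39 (SE 0.14) for SLC25A37, -1.06 (SE 0.22) for FDXR, 1.37 (SE 0.25) for HFE and 1.09 (SE 0.21) for FECH. The difference for FDXR fell short of the fold criterion without replicate 2 of A549-HOXC6 (-0.96) or replicate 2 of PC9-NEO (-0.91), and that for FECH without replicate 1 of A549-NEO (0.99), replicate 3 of A549-HOXC6 (0.97) or replicate 3 of PC9-NEO (0.95).

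**Figure D5:**
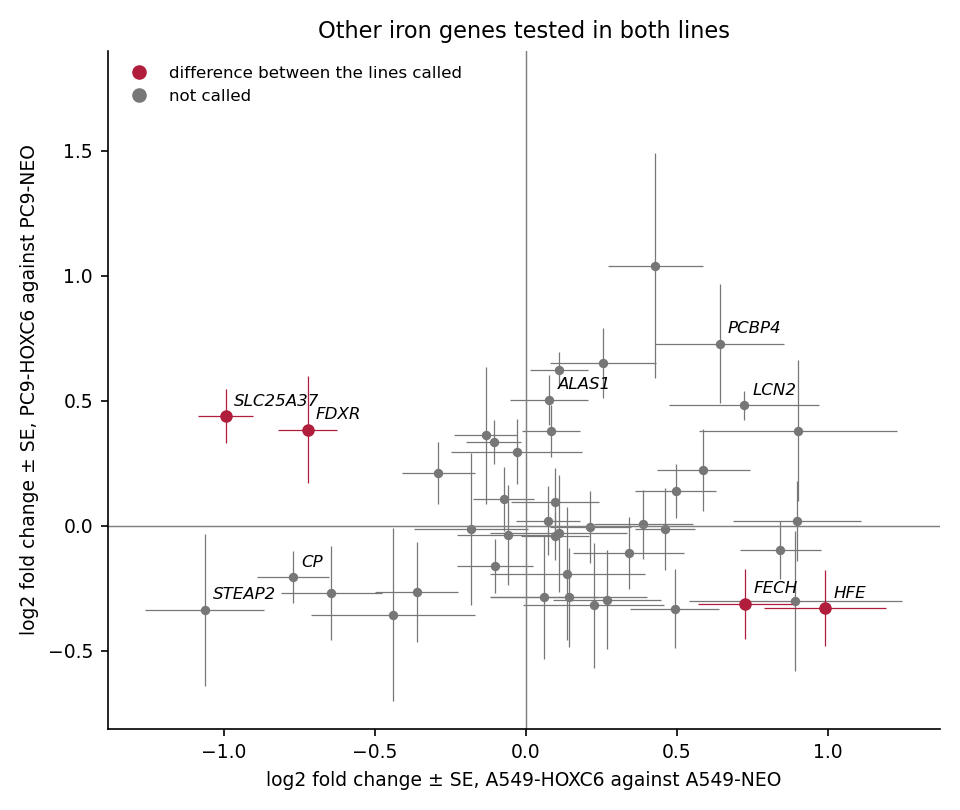
Log2 fold change with SE of 44 other iron genes tested in both lines, A549 on the horizontal and PC9 on the vertical axis; red marks the 4 genes whose change differed between the lines at the criterion. SLC25A37 and FDXR lie to the upper left (-0.99 and 0.44, -0.72 and 0.38), HFE and FECH to the lower right (0.99 and -0.33, 0.73 and -0.31), and LCN2 and PCBP4 to the upper right.

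Between the lines with the empty vector, 13 of 49 other iron genes were called higher in A549-NEO and 8 higher in PC9-NEO (36% of all genes were called). LCN2 was among the latter, with a log2 fold change of -5.73 (SE 0.11) for A549-NEO against PC9-NEO, and FDXR among the former, with 4.19 (SE 0.12).

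The genes most like each ferritin row and BEST1 over 12 libraries were looked up among 7892 other genes with a mean of at least 10 CPM, by Pearson's r of log2 CPM. For FTL they were SQSTM1 (r = 0.994), ENSG00000090920, AKR1C2, TSPAN3 and ALDH1A1 (r = 0.982). The annotation used gave no name for ENSG00000090920. After subtraction of group means, r with FTL stayed at 0.916 for SQSTM1, the autophagy receptor p62. It was 0.191 for ENSG00000090920, -0.0786 for AKR1C2, 0.124 for TSPAN3 and -0.434 for ALDH1A1. Beyond SQSTM1, the likeness therefore lay mostly in the differences between the 4 groups. For FTH1 they were PHF1 (r = 0.949), CDC34, PGF, RAB11FIP4 and PPP1R18 (r = 0.901). With group means subtracted, r with FTH1 was 0.543, 0.847, 0.504, 0.177 and 0.28, in the same order of genes. For BEST1 they were FBXO44 (r = 0.892), WDR59, UQCC2, YPEL1 and ARHGEF39 (r = 0.864). With group means subtracted, r with BEST1 was 0.863, 0.713, 0.92, 0.87 and 0.718, in the same order of genes. Of these 5, all but WDR59 share at least 100 bp of exon with a gene on the opposite strand, as do 39.4% of the 7893 genes compared. Among the genes nearest to FTH1 only RAB11FIP4 does so (768 bp). Among those nearest to FTL, SQSTM1 (1582 bp, opposite MRNIP) and TSPAN3 (264 bp) do. FTH1 was not among the genes nearest to BEST1, with r = 0.528 over all libraries. FTH1 and FTL had r = -0.589 over all libraries and 0.794 after subtraction of the group means. The libraries fall into 4 groups and share depth and normalization, so these values are descriptions.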

How the data were processed

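RNA-seq counts of 12 libraries were analysed. According to the labels and the study's methods, the authors purified polyadenylated RNA from Trizol extracts, made strand-specific libraries and sequenced paired reads of 150 bp. The submitters' processing notes name bcl2fastq 2.19, HISAT2 2.1.0, HTSeq 0.9.1, DESeq2 and GRCh37.p13. The deposited values are the authors' raw read counts per gene, with no normalization and no pooling of replicates. The strand setting and the annotation release are not given in the sources used here, so the strand that was counted is not known for any gene. The table as held here has 12584 complete genes in order of Ensembl identifier; 1 incomplete last entry was left out, and those with later identifiers were not used here. Names, positions, GC content and lengths came from GENCODE version 44 for GRCh37, in which 12463 genes were found.

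Each comparison was fitted with edgeR 4.0.16 (R 4.3.3) by the quasi-likelihood test on its own 6 libraries (12 for the difference between lines), after filterByExpr and TMM scaling, with Benjamini-Hochberg adjustment over all genes tested. SEs were derived from the F statistic of each estimate, for which edgeR draws the spread of a gene toward that of genes of similar level. They can therefore be smaller than the spread of a gene's own libraries implies. Printed CPM use TMM factors over 12 libraries, so ratios of CPM can differ from fitted folds by a few percent. The members and lists were chosen with earlier results of these data known. The other iron genes named are those called in a HOXC6 comparison or in the difference between lines and the gene with the highest mean CPM in each group of the list, and exceptions are stated. The labels do not say whether replicates were separate cultures, so that the errors rest only on the spread between libraries, moderated as stated. Replicate pairs differed by more than sampling noise (chi-square per degree of freedom 1.58 to 4.27). Over the genes tested, same-numbered libraries did not deviate together (mean correlation 0.0016 in A549 and 0.021 in PC9), so the numbers were not taken as pairs. A single gene can depart from this. BEST1 in PC9 was lowest in replicate 3 of both groups, and with the replicate block its SE was 0.032. The fits were tested on simulated counts with 200 genes changed by a log2 value of 1.5. Of those tested, 95.9% in A549, 98.4% in PC9 and 88% in the difference between lines were recovered. Unchanged genes called were 0, 1 and 4, in the same order. The simulated spread followed the trend with level and not that of each gene. This change is larger than that of any member with HOXC6, and recovery of smaller changes was not tested. Alternatives were DESeq2 1.42.0, a model of 12 libraries, RLE or library-total scaling, other filters, a replicate block, a GC and length correction (mgcv 1.9.3), summed FTH1 and BEST1 counts, and each library left out.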

Additional observations from a re-analysis of the deposited data

Results flagged for a closer look

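For 13 genes the response to HOXC6 differed between A549 and PC9 at an adjusted p under 0.05 in the interaction term (edgeR, 12 libraries), without a criterion on its size. These were 3 of 7 members and 10 of 49 other iron genes, beside 19.4% of all genes tested. The difference, A549 minus PC9 on the log2 scale, was -0.61 for FTH1, 0.37 for FTL and -0.31 for BEST1, which were chosen with these data known, so that these 3 are a description and support nothing. BEST1 missed the threshold with DESeq2 and with any of 8 of the 12 libraries left out, and was -0.20 without replicate 3 of PC9-NEO. Of the other iron genes it was -1.39 for SLC25A37, 1.37 for HFE, 1.09 for FECH and -1.06 for FDXR, as described above. It was 0.98 for CIAPIN1, a cytosolic iron-sulphur cluster factor (0.84 in A549, -0.10 in PC9), and 0.92 for UROD, a haem synthesis enzyme (0.90 and 0.02). It was 0.87 for ABCG2, an exporter that also carries porphyrins (0.49 and -0.33), and -0.52 for CP (-0.77 and -0.21). For MELTF, melanotransferrin, it was -0.46 (0.11 and 0.62), and for BLVRB -0.39 (-0.11 and 0.33).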

How the results depend on the processing

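Depth and the partial gene table limit precision: 3 counts equal 0.913 to 2.48 CPM, and scaling and adjustment rest on the genes held. Scaling by library totals moved the members' log2 values by a median of -0.045 in A549, -0.083 in PC9 and -0.11 between the lines. FTH1 kept its direction in both HOXC6 comparisons under every alternative but the summed counts, where it was 0.075 in A549. With the GC and length correction, A549 values were -0.17 for BEST1, 0.044 for IREB2, 0.065 for ACO1 and 0.0018 for SLC11A2, STEAP2 in PC9 was 0.18, FTL between the lines was 1.05, the members called there were 2, the members with an adjusted p under 0.05 in PC9 were 3 against 5, and the other iron genes called in A549 were 4 against 1. With that correction and the replicate block these were -0.17 (BEST1), 0.051 (IREB2), 0.068 (ACO1), 0.16 (STEAP2), 1.05 (FTL), 2 members and 4 other iron genes. The replicate block alone turned no direction and changed no call (FTH1 -0.26 in A549 and 0.40 in PC9). In one model of 12 libraries ACO1 in A549 was 0.0093, BEST1 between the lines -0.018, and the other iron genes called were 2 in A549 and 1 in PC9. Those called in A549 were also 2 with RLE factors, library totals, no filter or at least 10 counts. BEST1 between the lines was -0.090 with library totals, and the line difference for SLC11A2 was -0.027 with DESeq2 and -0.022 with RLE factors. The causes were not tested. With each library left out, values ran from -0.12 to 0.24 for TFRC and -0.091 to 0.033 for ACO1 in A549, from -0.093 to 0.17 for BEST1 between the lines and from -0.16 to 0.12 for the SLC11A2 line difference, and other iron genes called from 1 to 4 in A549 and 0 to 1 in PC9.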
